A study of Mus musculus with 2 samples.

Results

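The part of the immunoglobulin heavy chain (Igh) locus described here is a stretch of 475 kb at the constant side of the distal VH domain, on mouse chromosome 12 from 115725000 to 116200000 (build mm9). Its members are all forward-by-reverse primer pairs of which at least 1 fragment has its midpoint in that interval, pairs with no counts included. The stretch held 24 of the 206 assayed HindIII fragments, 10 with a forward and 14 with a reverse primer. The design text gives 112 forward and 113 reverse primers for the locus, of which 98 and 108 were in the matrices used here. They gave 2312 of the 10584 assayed pairs. Contacts were measured by 5C, in which fixed chromatin is cut with HindIII and ligated and the joined fragments are counted by sequencing. The cells were unstimulated resting B cells from the spleen of C57Bl/6 mice, taken as CD43-negative cells with magnetic beads, and both libraries form 1 group that the design text calls biological replicates. There was therefore no contrast between conditions and no test over samples. Values are given for each library, or as the mean ± SD of the 2.

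The heavy chain locus holds its constant-region genes at one end, then the JH and DH segments, and then a long array of VH segments, of which the J558 family fills most of the distal domain. A B cell precursor joins 1 VH segment to a DJ join, and distal VH segments can take part because the locus folds and brings them close to the DJ region. An enhancer between the JH segments and the constant genes and a group of enhancers past the last constant gene act on the rearranged gene at a distance. Resting splenic B cells have completed this rearrangement, so they are a mixture of clones in which the DNA between the joined segments has been lost on rearranged alleles. How far this loss enters the counts was not tested. The label as a distal VH stretch is a matter of position only: no fragment was assigned to a gene, and the counts cannot test the label.

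The fragments of the stretch are named by primer type and number. From the constant side they were R398 (115774724 to 115776651), R401 (115780319 to 115786560), F402 (115786561 to 115788403), R403 (115788404 to 115792870), F404 (115792871 to 115793993), R410 (115806128 to 115807344), F412 (115807614 to 115809234) and R413 (115809235 to 115810743). Next came F415 (115816276 to 115822016), R418 (115823136 to 115824506), F419 (115824507 to 115826299), R420 (115826300 to 115827627), F423 (115830886 to 115840223), R428 (115848051 to 115855284) and F429 (115855285 to 115858063). R435 (115877939 to 115880010), F436 (115880011 to 115885590), R450 (115938466 to 115941645), R457 (115972764 to 115974287), F458 (115974288 to 115975884) and R464 (115993659 to 116000828) followed. After a gap of 165 kb without an assayed fragment, R499 (116166285 to 116168748), F501 (116168801 to 116169973) and R509 (116193782 to 116198883) closed the stretch. The fragments were thus dense on the constant side, and 3 of the 24 lay beyond the gap.

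Member pairs held 773948 of 16067416 counts in replicate 1 and 677635 of 15096402 in replicate 2, which is 4.65% ± 0.232 of each library from 21.8% of the pairs. There were 10 member pairs made of adjoining fragments with 1 HindIII site between them. These pairs, in which uncut or re-joined chromatin cannot be told from contact, held 28.6% ± 0.410 of these counts. The median count of a member pair was 84.5 in replicate 1 and 75.0 in replicate 2. There were 37 members at 0 in replicate 1 and 48 in replicate 2, of which 12 were at 0 in both. Across the 2312 members, which share fragments and libraries and are not replicates, Spearman's rho between libraries was 0.91 for counts. It was 0.88 for z, the distance-corrected score defined next, and 0.61 for z with primer effects removed.

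The count expected at each distance was taken from a smooth (LOWESS) fit to all pairs of a library, and z is the distance of a count from it in units of the smoothed spread at that distance. Since the expected count is a mean and counts are skewed, most pairs lie below it: the median ratio of observed to expected count over all pairs was 0.431 ± 0.0132, and over members it was 0.397 ± 0.0232. A window of partners is read against these values, not against 1. The call rule used here required a z of at least 2 in replicate 1 and in replicate 2, since the design text counts an interaction only when both libraries show it. By this rule 37 of 2312 members were called (1.60%), beside 1.45% of all assayed pairs, so the share of members called was near that of the whole locus. The called members had 4.28 to 53.4 times the expected count and at least 495 counts in each library, and 23 of them were over 1 Mb apart. Their median distance was 1178 kb, beside 1001 kb for all members.

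To compare where the stretch makes its contacts, the locus was divided into windows as wide as the stretch. The constant-end window (114300000 to 114774999) is 1 of 3 windows on the constant side, and is followed toward the stretch by VH window 2 (114775000 to 115249999) and VH window 1 (115250000 to 115724999). On the far side lie distal VH window 1 (116200000 to 116674999), distal VH window 2 (116675000 to 117149999) and the distal end window (from 117150000). The last assayed fragment ended at 117350186. These bounds are distances and not gene borders.

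By median ratio of observed to expected count, the stretch stood highest with the constant end and lowest with itself. These windows lay at unlike distances, with a median of 73.0 kb within the stretch and 1340 kb with the constant end. Without shared-site pairs, the constant end had a median ratio with itself of 0.190 under 50 kb and 0.716 from 150 kb. In the same 2 distance classes distal VH window 2 had 0.0909 and 0.184 with itself, and the stretch had 0.0505 and 0.445. Over all distances, shared-site pairs included, distal VH window 2 had 0.143 in replicate 1 and 0.0995 in replicate 2 with itself. The stretch had 0.139 and 0.0993 by that measure. The median ratio of observed to expected count for the 758 pairs with the constant-end window was 0.648 in replicate 1 and 0.652 in replicate 2. In the other VH windows of the constant side it was lower, at 0.350 and 0.316 for VH window 2 (256 pairs) and 0.282 and 0.241 for VH window 1 (472 pairs). On the distal side it was 0.451 and 0.403 for distal VH window 1 (258 pairs), 0.369 and 0.358 for distal VH window 2 (202 pairs), and 0.335 and 0.333 for the distal end window (226 pairs). Both libraries thus placed the constant end above each other window by more than they differed from each other. Pairs above the expected count in both libraries made up 30.3% of those with the constant end, and between 8.57% and 23.6% in the other windows.

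**Figure D1:**
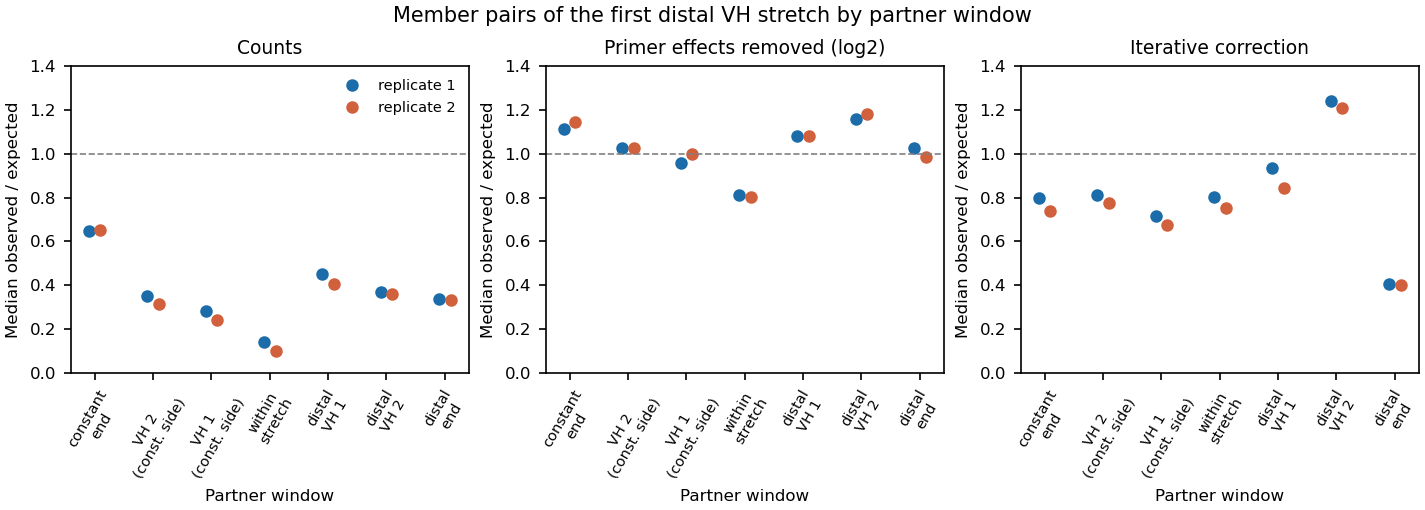
Median ratio of observed to expected count (vertical axis) of member pairs in each of 7 partner windows (horizontal axis), for both libraries (points), from counts, after removal of primer effects on the log2 scale, and after iterative correction. From counts the constant end stands highest at 0.650 and the stretch itself lowest at 0.119, while the corrected values order the windows differently.

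This order did not survive the removal of effects of whole fragments. When a single effect for each forward and each reverse primer was fitted on the log2 scale together with distance, the constant-end window had medians of 1.11 and 1.15 and distal VH window 2 had 1.16 and 1.18. Pairs within the stretch remained lowest, with 0.812 and 0.801. After iterative correction, which evens out the sums of all primers and here left out pairs that share a site, the stretch had its highest medians with distal VH window 2 (1.24 and 1.21) and its lowest with the distal end window (0.403 ± 0.004), and the constant end had 0.797 and 0.738. Distal VH window 2 was therefore highest under both corrections, and the constant end in neither. What a fragment does with all partners is taken out by either correction, so differences between primers in recovery cannot be told apart from contacts of 1 fragment with all others.

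The constant end had the highest share of called members as well as the highest uncorrected median, and the other windows were ordered differently by the 2 measures. With the constant end 20 of 758 pairs were called (2.64%), with VH window 2 5 of 256 (1.95%) and with distal VH window 1 5 of 258 (1.94%). The distal end window had 3 of 226 (1.33%), VH window 1 had 2 of 472 (0.424%), distal VH window 2 had 1 of 202 (0.495%), and within the stretch 1 of 140 (0.714%) was called. For pairs between the constant end and the neighbouring windows the shares were 2.06% from VH window 1 and 1.82% from distal VH window 1, and the medians were 0.614 ± 0.0163 and 0.706 ± 0.0384. The median of the stretch with the constant end, 0.650 ± 0.00290, lay between its neighbours, and the difference from them was not tested. VH window 2 stood above the stretch, with 25 of 695 pairs called with the constant end (3.60%) and a median of 0.653 ± 0.00140. Distal VH window 2 had 0 of 536 called and the distal end window 8 of 599 (1.34%).

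Before distance was taken out, pairs within the stretch held more counts than pairs with any other single window. Pairs within the stretch were 6.06% of members and held 45.2% ± 1.02 of their counts. Those with the constant end held 17.8% ± 0.997, with VH window 1 13.4% ± 0.338, and with distal VH window 1 13.5% ± 0.180. VH window 2, distal VH window 2 and the distal end window held 3.87% ± 0.137, 2.71% ± 0.0632 and 3.52% ± 0.337. The large share of inner pairs rests on neighbours: without pairs that share a site it was 27.9% ± 2.29, and the share with the constant end rose to 25.0% ± 1.54. The 27.9% still includes close neighbours that share no site. F501-R499, with midpoints 1.87 kb apart, had 63599 and 54317 counts, and F412-R410, 1.69 kb apart, had 28640 and 20232.

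Contacts at 50 to 150 kb inside the stretch were low compared with equally wide windows at the same distances. Among pairs 50 to 150 kb apart, without shared-site pairs, the 35 pairs of the stretch had median counts of 98 and 48 in replicates 1 and 2. The medians of the other windows at this distance ran from 183 in distal VH window 2 to 814 in the constant end in replicate 1, and from 116 to 730 in replicate 2. In ratio to the expected count the stretch had 0.0591 and 0.0444, below each of the other 6 windows in both libraries. After removal of primer effects it had 0.644 and 0.626 and was again below the 6, whose values ran from 0.761 to 1.88. After iterative correction its mean of 0.671 lay above those of the constant end (0.521), VH window 1 (0.632) and the distal end window (0.432). Under 50 kb, without shared-site pairs and with primer effects removed, the stretch had 0.638 and 0.536. Distal VH window 1 had 0.519 and 0.703 there, so the stretch was not lowest in replicate 1. Some of the stretch's own fragments were low with all partners, as given for R413, R420, R428, F429 and R450 in what follows, and the part of these fragments in the low values was not tested beyond the 2 corrections.

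Longer contacts inside the stretch, most of them across the gap, were not low. Among pairs 150 kb or more apart the 47 pairs of the stretch had median counts of 187 and 166 and ratios of 0.446 and 0.445. Equally distant pairs within VH window 1 had 0.210 and 0.194, and those within distal VH window 1 had 0.722 and 0.542. The 30 pairs that join the 21 fragments before the gap with the 3 beyond it, 172 to 409 kb apart, had ratios of 0.832 and 0.939. The 108 pairs among the 21 fragments, 1.56 to 210 kb apart, had 0.0706 and 0.0543. With primer effects removed these values were 1.11 and 1.29 across the gap and 0.738 and 0.691 before it, so the difference kept its direction at a smaller size. The 2 sets were not matched in distance, and the part of distance in this difference was not tested. By summed counts of pairs over 100 kb, R499, F501 and R509 ranked 1, 4 and 6 of the 24 fragments in replicate 1 and 2, 4 and 6 in replicate 2. F501 was low with distal VH window 1, with a median ratio of 0.128 and 0.0781. The 3 fragments cannot stand for the whole region beyond the gap.

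The called pair inside the stretch joined R435 with F501, 290 kb apart across that gap. It had 3688 counts in replicate 1 and 3284 in replicate 2 where 377 and 340 were expected, or 9.71 ± 0.0850 times. The pairs next to it were low or near the expected count: F458-R435 had 0.292 times, F501-R428 0.0825, F501-R450 0.0435 and F510-R435 1.27. F436, which shares a HindIII site with R435, had 1591 and 1246 counts with R499, 3.83 ± 0.387 times the expected count, and that pair was not called on counts but was called under both corrections (z of 2.63 and 2.49 with primer effects removed).

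**Figure D2:**
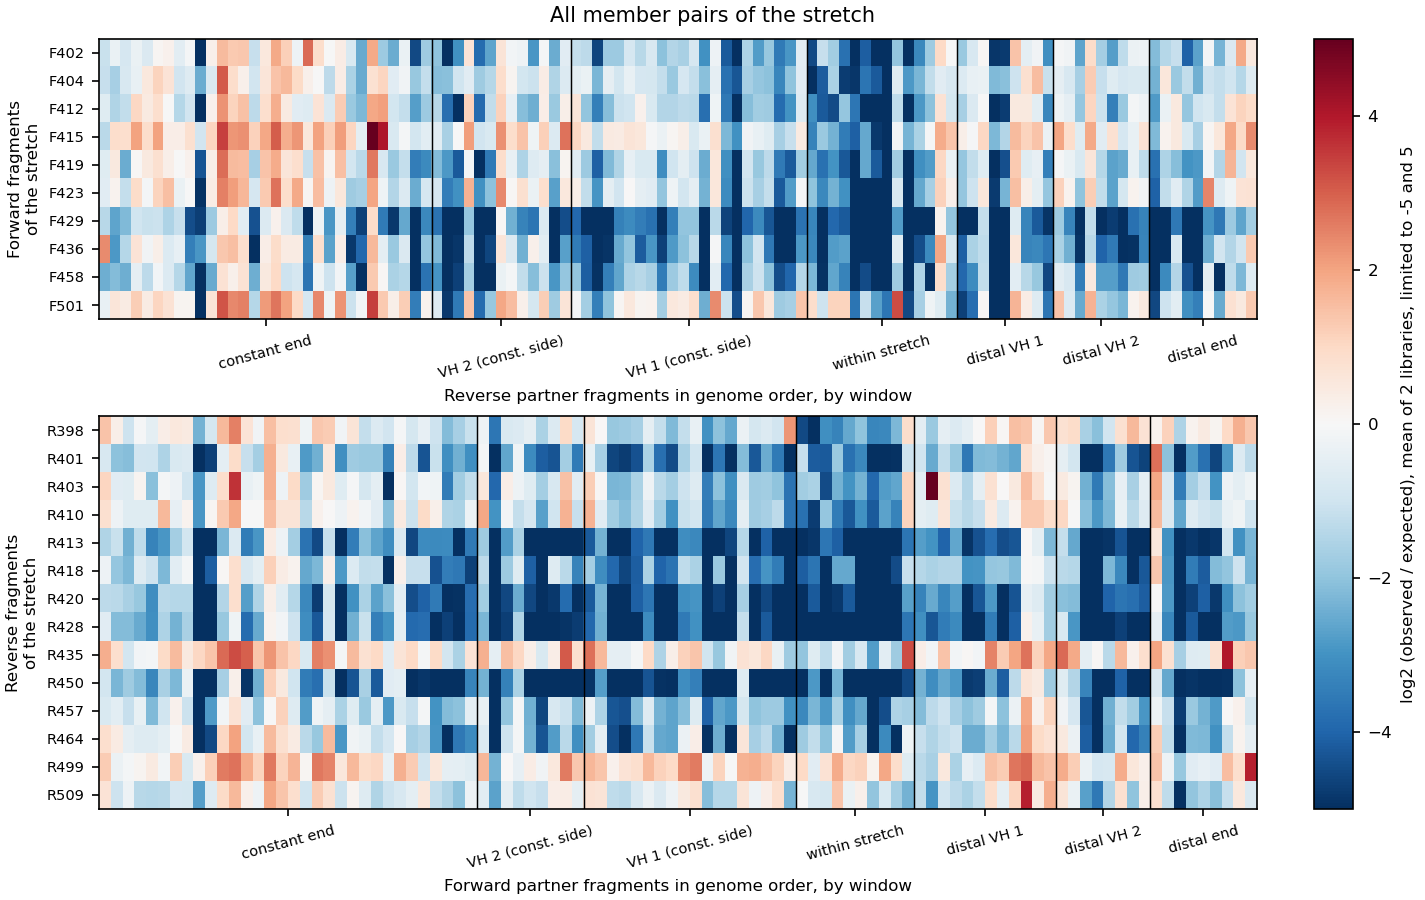
Map of all member pairs, with the 24 fragments of the stretch as rows (forward fragments above, reverse below) and all partner fragments of the other primer type as columns in genome order, divided by window. Colour gives log2 of the ratio of observed to expected count, mean of both libraries, and whole rows such as R435 and R499 (high) or R428 and R450 (low) stand out over all windows.

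The fragments of the stretch differed widely among themselves. Summed counts with partners over 100 kb away ran from 2603 (R428) to 45155 (R499) in replicate 1 and from 2375 (R413) to 42579 (F415) in replicate 2, a range of 17.3 and 17.9 times, with medians of 14406 and 13348. On counts, 12 of the 24 fragments had at least 1 called pair and 12 had none. The number of called pairs moved with these sums, with a Spearman's rho of 0.81 and 0.83 over the 24 fragments in replicates 1 and 2, where both measures come from the same counts. Whether a fragment has high sums through contact or through its primer cannot be told apart here.

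R435 had 11 called pairs of 98, the most in the stretch. Its sums over 100 kb were 44189 and 36012, and its median ratio to the expected count was 1.61 in replicate 1 and 1.42 in replicate 2. Of the 11 called partners 6 lay in the constant-end window. The neighbouring reverse fragments gave a contrast: R428 had sums of 2603 and 2493 and R450 of 3906 and 3411, with median ratios of 0.0582 and 0.0489 and of 0.0646 and 0.0340. F436, cut from R435 at a shared HindIII site but read with a forward primer and so with other partners, had 0 called pairs and median ratios of 0.175 and 0.133. The high level of R435 was thus not found in the fragments on either side of it.

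F415 had 7 called pairs of 108, 5 of them with the constant end, and sums over 100 kb of 44785 and 42579. Its median ratio was 1.34 and 1.05 over all partners and 2.49 and 1.82 over the constant end. R499 had 6 called pairs of 98, none with the constant end, and the highest median ratio of the stretch in both libraries, 1.71 and 1.73. F423 had 3 called pairs, R403 had 2 and F501 had 2, with median ratios of 0.611 and 0.542, 0.501 and 0.649, and 0.945 and 0.936. F501 lies next to R499 and was also high, with sums over 100 kb of 34393 and 28360. At this place, unlike at R435, fragments of both primer types had high counts.

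At the other end, R428, R413 and R420 had no called pair on counts and the lowest mean z. Their median ratios were at most 0.0844 in either library. Even with the constant end, where the stretch was highest, their medians were 0.195 and 0.156 for R428, 0.161 and 0.145 for R413 and 0.206 and 0.186 for R420. F429 and R450, also without a called pair, had medians over all partners of at most 0.0808. Low fragments thus lay between high ones along the stretch.

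**Figure D3:**
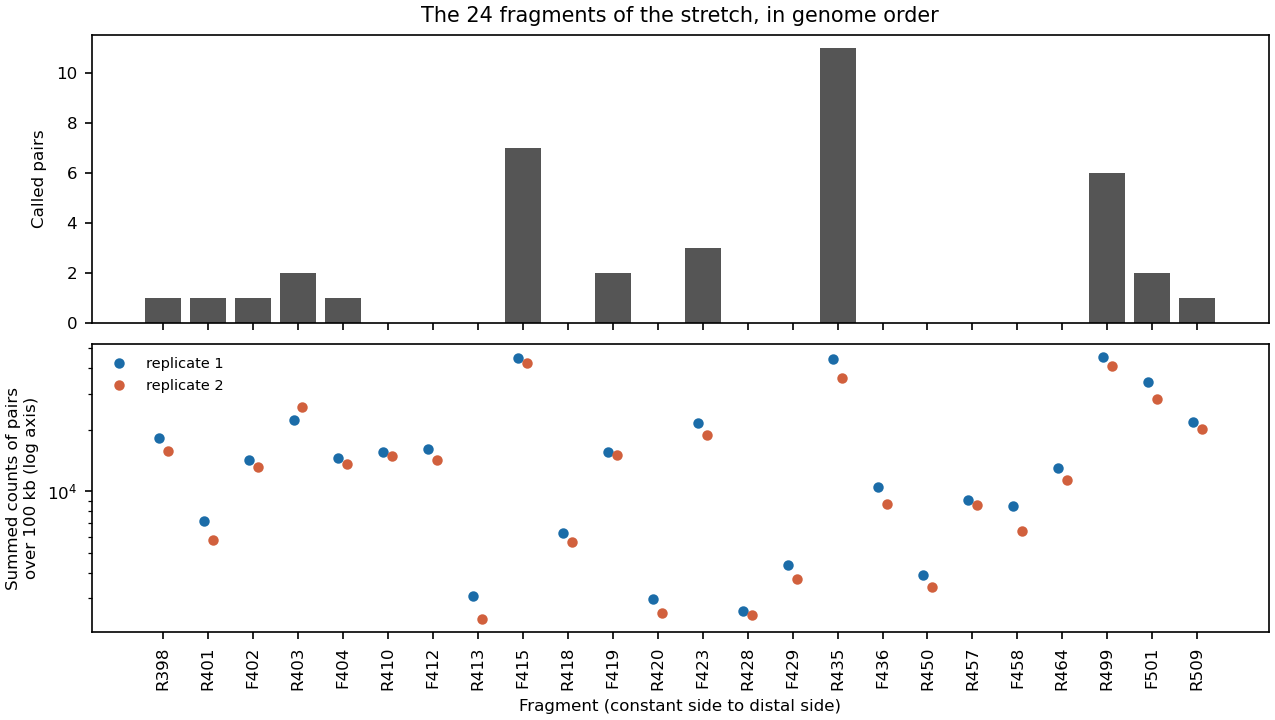
Called pairs of each of the 24 fragments of the stretch (upper bars, from 0) and summed counts of its pairs over 100 kb in both libraries (lower points, log axis), in genome order. R435, F415 and R499 have 11, 7 and 6 called pairs and also the highest sums.

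Outside the stretch 24 of 182 partner fragments had a called member pair, and 4 had 3 or more. The 6 partners with the most calls held 17 of the 37. R33 (114486613 to 114491122) was called with 4 of the 10 forward fragments of the stretch and lay above the expected count with all 10 in both libraries, with a median ratio of 4.99 and 4.81. R81 (114664824 to 114667095) was called with 3 of 10, with medians of 3.02 and 4.17. F31 (114477117 to 114480873) was called with 3 of 14, with 2.54 and 2.74. These 3 partners lie in the constant-end window, where 20 of 63 fragments had a median above 1 in both libraries.

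The same partners were also high outside the stretch. R33 had a median ratio of 3.12 ± 0.00450 with its 87 other partners (shared-site pairs left out), beside 4.90 ± 0.130 with the stretch. R81 had 2.75 ± 0.267 elsewhere and 3.60 ± 0.810 with the stretch, and F31 had 2.09 ± 0.331 and 2.64 ± 0.141. R44 (114539129 to 114547720), called with 2 of 10, had 2.25 ± 0.0376 and 3.47 ± 0.0496. After removal of primer effects, medians with the stretch were 1.20 for R33, 1.56 for R81, 1.16 for F31 and 1.27 for R44. These 4 fragments were thus above the expected count with the rest of the locus too. They also had called pairs there: 16 of 87 for R33 (18.4%), 11 of 86 for R81 (12.8%), 14 of 94 for F31 (14.9%) and 7 of 87 for R44 (8.05%).

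Nearer to the stretch, R171 (114996747 to 115006242) of VH window 2 was called with 2 of 10 and had 1.89 ± 0.0503, beside 1.15 ± 0.129 elsewhere and 1 called pair of 88. F611 (116559256 to 116561326) of distal VH window 1 was called with 3 of 14, R509, R499 and R435, and had 2.43 ± 0.779, beside 1.88 ± 0.372 elsewhere. With primer effects removed these partners had 1.54 ± 0.00616 and 1.80 ± 0.361.

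**Figure D4:**
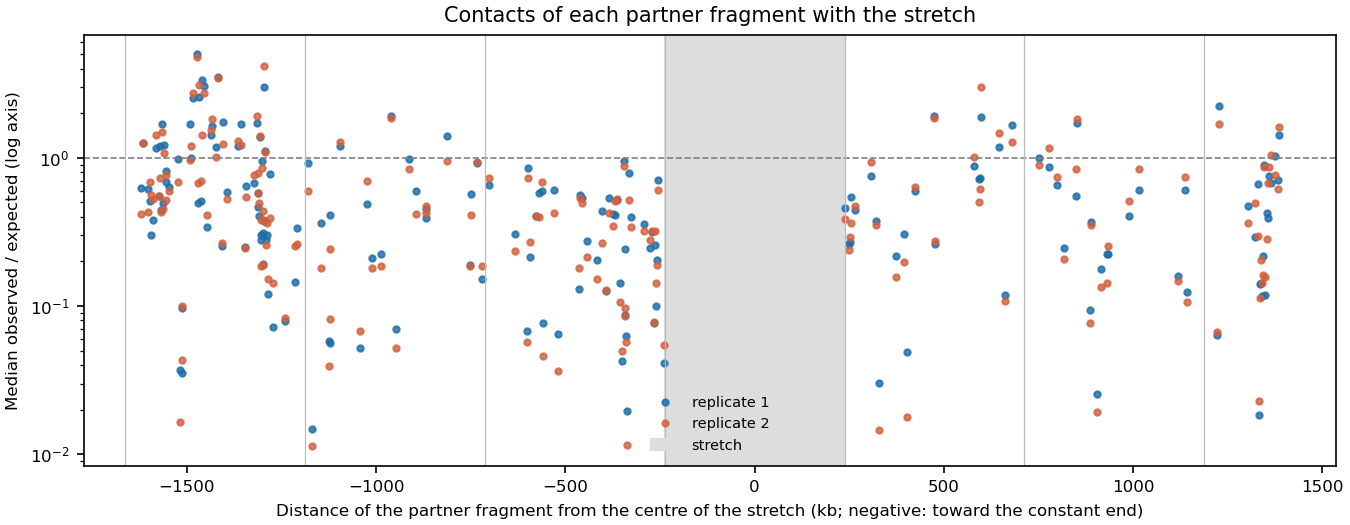
Median ratio of observed to expected count (log axis) of each of the 182 partner fragments with the stretch, against the distance of the partner from the centre of the stretch, for both libraries. The grey band is the stretch, thin lines are window borders, and 20 of the 29 partners above 1 in both libraries lie in the constant-end window at the left, where R33 is highest at 4.90.

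On counts, the side toward which the contacts ran depended on the distance. Pairs leaving the stretch at 250 to 500 kb had a median ratio of 0.273 and 0.229 toward the constant side (210 pairs) and 0.398 and 0.333 toward the distal side (105 pairs). At 1250 to 1600 kb the order was turned, with 0.685 and 0.692 toward the constant side (470 pairs, 16 called) and 0.295 and 0.299 toward the distal side (216 pairs, 2 called). Corrected for primer effects, the medians at the longer distance were 1.11 and 1.12 against 1.10 and 1.04, and both sides lay close together. At 750 to 1000 kb the corrected medians lay further apart, with 1.06 and 0.984 toward the constant side and 1.25 and 1.30 toward the distal side. Taken fragment by fragment, over distances that both sides reach, 15 of 24 fragments were higher toward the constant side in both libraries and 5 toward the distal side. R450 leaned most to the distal side, with ratios of constant to distal side of 0.304 and 0.184.

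Among single pairs, the highest of the stretch joined F415 with R81 of the constant-end window, 1.15 Mb apart. It had 7619 counts in replicate 1 and 7178 in replicate 2 where about 143 were expected in replicate 1, and 52.9 ± 0.747 times the expected count. It ranked first among the 108 pairs of F415 and first among the 98 pairs of R81 in both libraries. Pairs next to it were raised too. F415-R83 had 1979 and 2587 counts (16.4 ± 3.53 times), F419-R81 809 and 951 (6.30 ± 0.897 times) and F412-R81 542 and 526 (3.82 ± 0.0240 times), while F415-R79 had 148 and 51 (0.705 ± 0.470 times). R81 had a median ratio of 2.85 over all of its 98 pairs. The levels of F419-R81 and F412-R81 therefore cannot be told apart from that of R81 as a whole fragment. F415-R83 shares only F415, which had a median of 1.20 over its 108 pairs, and R83 had 1.01 over its 98. With primer effects removed z of F415-R81 was 2.49 in replicate 1 and 1.96 in replicate 2, just short of a call. F415-R83 was called with 2.18 and 2.11.

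F513-R403, 425 kb apart and reaching into distal VH window 1, had 7687 and 11118 counts, 40.3 ± 13.1 times the expected count. It was the single called member that was also called on the log2 scale, with primer effects removed (z of 5.47 and 5.45) and after iterative correction. Its neighbours did not share the level: F510-R403 had 174 and 169 counts, F517-R403 446 and 344, F513-R401 49 and 33, and F513-R410 120 and 201, or 0.175 to 1.70 times the expected count. Among the 5 pairs with the highest z after removal of primer effects, 2 more stood alone among their neighbours in both libraries. F377-R398, 51.6 kb apart, had 12742 and 12819 counts (4.61 ± 0.483 times), while F377-R401 had 11 and 6 and F402-R398 1460 and 984. F436-R1, 1.54 Mb apart, had 681 and 708 counts, while F429-R1 had 45 and 56 and F436-R4 15 and 21. Neither F377-R398 (z of 0.519 and 0.623) nor F436-R1 (z of 1.36 and 1.03) was called on counts.

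Other called pairs with high z reached the distal part of the locus. F837-R435 (1.44 Mb) had 1938 and 1882 counts (15.9 ± 0.188 times) and F850-R499 (1.18 Mb) had 1805 and 2289 (14.7 ± 2.89 times). F611-R509 (364 kb) had 4233 and 4181 counts (14.7 ± 0.979 times), and all 4 pairs next to it were above the expected count in both libraries. F661-R435 (860 kb), in distal VH window 2, had 1245 and 733 counts (7.15 ± 2.42 times). In each of these 4 pairs both libraries were several times above the expected count, and the counts of F661-R435 differed most between libraries in ratio to each other.

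The remaining named pairs went toward the constant side. F31-R403 had 1250 and 1819 counts (12.3 ± 3.79 times), F31-R435 917 and 1356 (9.67 ± 3.05 times), F34-R435 1328 and 565 (7.86 ± 4.17 times) and F28-R435 953 and 739 (7.14 ± 0.979 times), all 1.31 to 1.41 Mb apart. With R33, F415 had 1142 and 1516 counts (10.8 ± 2.69 times) and F404 1057 and 1085 (8.44 ± 0.567 times). F415-R44 had 1072 and 1085 counts (8.23 ± 0.435 times), and F233-R435, 665 kb apart in VH window 2, had 1345 and 1543 (8.45 ± 1.28 times). In VH window 1 the pair with the highest z, F272-R435, had 1794 and 1054 counts and was not called, since z was 3.84 and 1.93. Of the 15 called pairs with the highest z, 9 joined the constant end, 6 had R435 as an end and 4 had F415.

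**Figure D5:**
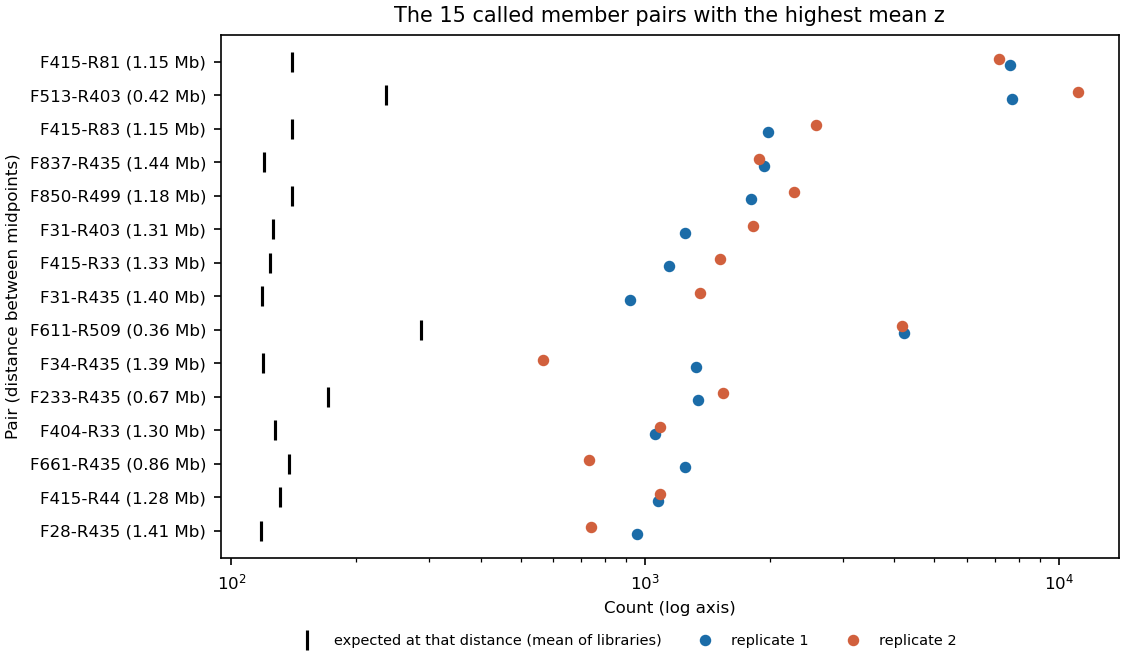
Counts (log axis) of the 15 called member pairs with the highest mean z in both libraries (points), with the count expected at their distance (black marks, mean of both libraries). All points lie to the right of their mark, and the ratio to the own library's expected count runs from 4.91 (F34-R435, replicate 2) to 53.4 (F415-R81, replicate 1).

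Neighbouring pairs, in which 1 of the ends is moved by 1 fragment of the same primer type, were raised around most called members. Of the 147 neighbouring pairs of the 37 called members, 96 (65.3%) were above the expected count in both libraries, beside 20.9% of all members and 21.8% of all pairs. Since a neighbour shares a fragment with the called pair, a high fragment raises both, and these shares cannot tell the 2 apart. Of the 37 called members 18 had a called neighbour, and 31 had at least 2 neighbours above the expected count.

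Which members were called depended on the scale and on the treatment of primer effects. On the log2 scale 9 members were called, all of them among the 37, beside 0.671% of all pairs. With primer effects removed 21 members were called (0.908%, beside 1.18% of all pairs), and 6 of them were among the 37. This number depends on the order of steps. When z was scaled first and primer effects were then taken out of z, an order tried after seeing the data, 18 pairs of the locus were called in place of 125 (0.17% of all pairs). They included 3 members, F513-R403, F377-R398 and F436-R1, all among the 21. After iterative correction 39 of 2302 members were called (1.69%, beside 1.23% of all pairs), and 4 of them were among the 37, while 17 pairs were called under both corrections. Of the 15 pairs named above, F513-R403, F415-R83, F837-R435 and F611-R509 kept their call with primer effects removed. F402-R61, 1.17 Mb apart, was called on counts (991 and 1016 counts, 7.18 ± 0.336 times) and under both corrections (z of 4.12 and 4.05 with primer effects removed), and F792-R401, 1.41 Mb apart, likewise (997 and 621 counts, 6.80 ± 1.96 times). The 5 highest values with primer effects removed included F76-R450, which had only 150 and 31 counts and differed most between libraries (z of 4.23 and 2.30).

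At the threshold itself, F415-R235 and F54-R435 were the called members with the lowest values, with a lower z of 2.02 and 2.03. F272-R435 and F415-R137 were the closest members not called, with a lower z of 1.93 and 1.89. Counts of these 4 pairs ran from 477 to 1794.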

How the data were processed

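Both libraries were deposited as all-by-all matrices of whole-number read counts per primer pair, made with the my5C tool after a step named transpurge, per the file headers. Novoalign and mm9 are named in the submitters' processing notes. The aligner's version and the mapping settings were not stated in those notes. No scaling or fragment correction was visible in the deposited counts. Counting error alone is small for the called pairs, and reads carried no stated molecular identifiers.

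Computed here for each library, with Python 3.11.15 and statsmodels 0.14.6: the expected count (LOWESS on log10 midpoint distance, all pairs, span 0.2, no robustness steps), z (residual over the root of the smoothed squared residual) and calls (z of 2 or more in both). Primer effects were removed by fitting additive forward and reverse effects and the distance trend of log2(count + 1) in turn (20 rounds), before scaling to z. Iterative correction used 100 rounds. The functions were tested on simulated data. Alternatives were other LOWESS spans, z thresholds and count or distance minimums, shared-site pairs left out, the stretch moved by 50 kb, and each library alone. No count model was used, since the libraries form 1 group.

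Named items were the 15 called members with the highest mean z, the highest in each window, the 5 highest with primer effects removed, the 6 fragments with most and the 3 with fewest calls, the 6 partners with most calls, and the 2 members on either side of the threshold; neighbouring pairs were added after values were seen. F402-R61 and F792-R401 outside the 15 were named for their calls under both corrections. Members, windows and lists were chosen with earlier results of these data known. Sequences of the fragments were not used here.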

Additional observations from a re-analysis of the deposited data

How the results depend on the processing

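The 37 called members were 23 with a LOWESS span of 0.4, 9 on the log2 scale, 21 with primer effects removed, 3 with them removed after scaling (an alternative chosen after seeing the data) and 16 at a z threshold of 3. They were 42 to 53 in single libraries and 29 to 51 under the other alternatives run. Calls with the constant end (20) were 11 with a span of 0.4, 4 on the log2 scale, 6 with primer effects removed, 12 after iterative correction and 9 at a threshold of 3, and 23 to 26 in single libraries. Fragments of the stretch with a call (12) were 6 from log2 counts, and each library alone gave 13 to 14. Which fragments carried calls changed under the 2 corrections. With primer effects removed and after iterative correction, R435 had 3 and 4 called pairs, F415 1 and 0, and R499 1 and 3. R450 had 3 and 8 in the same order, R428 0 and 4, and R413 2 and 2. Of the 15 named pairs 8 were called on the log2 scale, 4 with primer effects removed and 2 after iterative correction; single libraries had to call all 15, which were chosen for a call in both. The median ratio with the constant end over that of all other members (2.19) was 2.01 on the log2 scale, 1.11 with primer effects removed, 0.997 after iterative correction, 1.78 for pairs with a mean count of 10 or more, 4.39 as summed over expected counts, and 2.07 to 2.30 in single libraries. The median ratio within the stretch over that within all other windows (0.348) was 0.816 with primer effects removed and 1.21 after iterative correction, which turned the order, and 0.297 to 0.399 in single libraries. The share of member counts within the stretch (45.2%) was 22.8% after iterative correction, 27.9% without shared-site pairs and 6.42% without pairs under 50 kb, and 44.5% to 45.9% in single libraries.

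The median ratio of constant to distal side over fragments (1.20) was 1.23 on the log2 scale, 1.001 with primer effects removed, 0.873 after iterative correction, 1.16 without shared-site pairs, 1.12 without pairs under 50 kb, 1.15 with a mean count of 10 or more, and 1.17 to 1.22 in single libraries. Spearman's rho of z between libraries (0.88) was 0.61 with primer effects removed and 0.71 after iterative correction. Among the called pairs named above, mean z turned negative with primer effects removed for F415-R33 (-0.35), F31-R435 (-0.28), F415-R44 (-0.19), F28-R435 (-0.023) and F54-R435 (-0.40). After iterative correction it did so for these 5 (-0.56, -0.13, -0.54, -0.65 and -0.11) and for F404-R33 (-0.069). Other called members, not named, turned negative as well, such as F38-R435 (z of -1.16 and -1.19 with primer effects removed, mean z of -0.474 after iterative correction). These corrections remove whole-fragment effects by construction. Beyond that, the cause was not tested. Contacts of the 12 members at 0 in both libraries were not detectable at this depth. No paired analysis was possible because both libraries belong to a single group and there is nothing to pair them with.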
